A study of Arabidopsis thaliana with 24 samples.

Results

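Xyloglucan endotransglucosylase/hydrolases (XTHs) are encoded in Arabidopsis by 33 genes, XTH1 to XTH33, and the mRNA levels of all 33 were measured in hypocotyls treated with the auxin picloram. All genes of the family were taken by their locus identifiers, without a filter on measured values. The family itself was chosen with earlier results of these data known. They were 33 of the 30361 loci on the chip of experiment “a” and 33 of the 32627 loci, or 37118 transcripts, on the chip of experiment “b”. Each gene was represented by its lowest-numbered splice form, and XTH9 had a second form on chip “b”. By sequence relationship, 26 genes (XTH1 to XTH26) belong to groups I and II, 2 (XTH31 and XTH32) to group III-A, and 5 (XTH27 to XTH30 and XTH33) to group III-B. In the RefSeq table of assembly TAIR10.1, XTH22 is listed as TCH4, XTH23 as XTR6 and XTH27 as EXGT-A3.

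Xyloglucan is the main hemicellulose of the primary wall in most flowering plants other than grasses, where it lies against and between cellulose microfibrils. XTH enzymes cut a xyloglucan chain and either join the new end to another chain (endotransglucosylase activity) or transfer it to water (endohydrolase activity). Endotransglucosylase activity is the better known of these in groups I, II and III-B, whereas hydrolase activity has been shown for members of group III-A. Cutting and rejoining chains is one of the ways in which a growing wall is thought to be remodeled, and several XTH genes are known to respond to auxin, brassinosteroid, gibberellin, shade or touch.

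In experiment “a”, wild-type (Col-0) seedlings received either picloram (5 µM) or the solvent DMSO as a control, for 30 min or 2 h. In experiment “b”, afb5-5 and wild-type seedlings were given the same media for 2 h. afb5-5 carries a T-DNA insertion (line SALK_110643) in AFB5, an F-box protein that acts as a receptor for picloram, and is 1 line in the Col-0 background. All seedlings were 5 days old, were treated 2 h after the lights came on, and were dissected over 30 min, so that each sample is a pool of at least 400 (“a”) or roughly 700 (“b”) hypocotyls of many plants. Each of the 8 groups held 3 biological replicates. RNA was amplified in “a” but not in “b”. In “a” every picloram sample was labelled with Cy3 and every control with Cy5, so that at each time point the treatment and the dye cannot be told apart, whereas all samples of “b” carried Cy3. The methods describe the labeling of “a” as dual-color, and whether a picloram and a control sample shared an array was not stated. Values are log2 intensities, in which a difference of 1 is a 2-fold change, and they are compared between samples for the same gene and never between genes. A transcript was called when its FDR in limma was under 0.05 over all transcripts of the chip.

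The array medians of “a” ranged 1.72-fold, between 869 and 1497, before the arrays were scaled to each other, and those of “b” ranged 1.03-fold. GH3.3, a conjugating enzyme that is a standard auxin-induced gene, read 12.19, 11.65 and 12.37 in afb5-5 on picloram, 10.11, 10.89 and 11.01 in afb5-5 on control, 13.81, 14.30 and 14.15 in wild type on picloram and 10.81, 11.55 and 11.26 in wild type on control. The picloram samples were above the controls in both genotypes, and the change was called in wild type (2.88 ± 0.28 on the log2 scale, ± SE) but not in afb5-5 (1.41 ± 0.28). AFB5 mRNA read 13.16, 12.49 and 12.90 in afb5-5 on picloram, 13.24, 13.06 and 12.97 in afb5-5 on control, 12.55, 13.16 and 12.65 in wild type on picloram and 13.38, 13.56 and 13.39 in wild type on control. It was not called between the genotypes, and since the position of its probes relative to the insertion was not known, it does not check the genotype. No gene on the marker lists is specific to the hypocotyl. The 5 markers of plant-axis tissues were all outside the dimmest 25% of each chip. At 2 h in “a”, 2 of these 5 were called higher on picloram, beside 5.53% of all transcripts. They were the vascular regulator ATHB8 (1.45 ± 0.27, adjusted p = 0.00778) and the epidermal regulator ATML1 (0.62 ± 0.18, adjusted p = 0.0426), with a list median of 0.62. In wild type of “b” none was called, beside 1.71% of all transcripts higher and 0.458% lower, and the median was 0.20. Of the 5 markers of the stomatal lineage and shoot apex none was called at 2 h in either experiment, beside 11.4% of all transcripts in “a” and 2.17% in wild type of “b”. Root-hair markers were detected too: their 7 summed linear intensities ranged between 3587 and 5185 in wild type on picloram and between 4208 and 8290 in wild type on control in “b”, and reached 15230, 16670 and 1935 in the picloram samples at 2 h in “a”, against 991, 950 and 3378 in the controls. In whole hypocotyls, fewer cells of a type and less RNA per cell cannot be told apart.

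At 2 h in experiment “b”, picloram raised 10 of the 33 XTH mRNAs in wild type and lowered 2. The 10 were XTH8, XTH15, XTH16, XTH17, XTH18, XTH19, XTH22, XTH23, XTH30 and XTH33, with log2 changes between 0.85 and 2.56, and the 2 were the pair of group III-A, XTH31 and XTH32. Over all 37118 transcripts, 2.17% were called, 1.71% higher and 0.458% lower. By group, 8 of 26 genes of groups I and II and 2 of 5 of group III-B were called higher, none of either was called lower, and 2 of 2 of group III-A were called lower. The median change over the 33 genes was 0.16, beside -0.03 over all transcripts, so that the middle of the family lay near 0.

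XTH17, XTH18 and XTH19 are close relatives within groups I and II that have mostly been studied in roots. XTH18 (AT4G30280) read 11.05, 10.84 and 10.90 in wild type on picloram, against 7.91, 8.52 and 8.68 on control. The samples did not overlap, and the change was 5.89-fold (log2 difference ± SE 2.56 ± 0.34, adjusted p = 0.00199). XTH19 (AT4G30290), which lies beside XTH18 on chromosome 4, read 13.53, 12.90 and 13.22 on picloram and 11.26, 11.17 and 11.08 on control, a rise of 4.14-fold (2.05 ± 0.18, adjusted p = 0.000197). XTH17 (AT1G65310) read 12.33, 11.63 and 12.19 on picloram and 11.01, 9.72 and 10.40 on control. These groups did not overlap either, but they came nearer to each other than those of XTH18 and XTH19, with control replicate 1 the highest control and picloram replicate 2 the lowest picloram sample (1.67 ± 0.36, adjusted p = 0.0347). XTH17 was no longer called when the arrays were quantile normalized, when only these 2 groups were fitted, or when any sample except control replicate 1 was left out.

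XTH16 and XTH15 are also of groups I and II, and XTH15 (also known as XTR7) is a familiar shade-induced gene. XTH16 (AT3G23730) read 11.77, 11.16 and 11.61 in wild type on picloram, against 9.54, 9.14 and 9.44 on control, the second largest rise of the family at 4.41-fold (2.14 ± 0.31, adjusted p = 0.00362). XTH15 showed a smaller but tight difference. Its levels (AT4G14130) were 10.92, 10.80 and 10.81 on picloram and 9.94, 9.97 and 9.98 on control, with little spread in either group (0.88 ± 0.14, adjusted p = 0.00675). XTH8 (AT1G11545) was higher in all picloram samples as well, at 11.01, 11.24 and 11.07, against 9.62, 9.67 and 9.38 on control (1.56 ± 0.16, adjusted p = 0.000473).

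XTH22, better known as TCH4, was first described as a gene induced by touch and is also induced by auxin and brassinosteroid. It (AT5G57560) read 13.04, 12.40 and 12.85 in wild type on picloram, against 11.64, 11.14 and 11.51 on control, or 2.51-fold higher (1.33 ± 0.20, adjusted p = 0.00496). XTH23 (XTR6, AT4G25810) read 12.44, 12.46 and 12.25 on picloram and 10.73, 11.17 and 10.36 on control, 3.09-fold higher (1.63 ± 0.21, adjusted p = 0.00177). In both genes every picloram sample was above every control sample.

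From group III-B, XTH33 and XTH30 were called. XTH33 (AT1G10550), whose protein is predicted to be anchored in the membrane, read 11.70, 11.73 and 11.55 in wild type on picloram, against 10.71, 10.12 and 10.03 on control (1.38 ± 0.18, adjusted p = 0.00177). XTH30 (AT1G32170) read 9.73, 9.66 and 9.73 on picloram and 8.69, 8.93 and 8.95 on control, the smallest of the called rises (0.85 ± 0.16, adjusted p = 0.0189), and it was no longer called in 5 of the 6 fits that left out 1 sample, all but the one without control replicate 2. The other 3 genes of the group, XTH27, XTH28 and XTH29, differed by between 0.04 and 0.16 log2 units and were not called.

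XTH31 and XTH32 moved in the opposite direction. For XTH31 (AT3G44990), an enzyme with xyloglucan endohydrolase activity, the levels were 10.34, 11.79 and 11.24 in wild type on picloram and 12.56, 13.00 and 12.90 on control, so that all picloram samples were below all controls and picloram replicate 1 was the lowest. The mean fell by 1.70 ± 0.30 (SE) on the log2 scale, a 3.25-fold decrease (adjusted p = 0.0106). XTH32 (AT2G36870) read 11.03, 11.40 and 11.26 on picloram and 11.99, 12.39 and 12.29 on control and fell by 0.99 ± 0.17 (SE), or 1.99-fold (adjusted p = 0.0107). Without control replicate 3 both genes lost their call (adjusted p = 0.0528 and 0.0567) while keeping their direction, XTH32 also lost it without picloram replicate 3 (0.0533), and XTH31 when only the 2 groups were fitted.

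**Figure D1:**
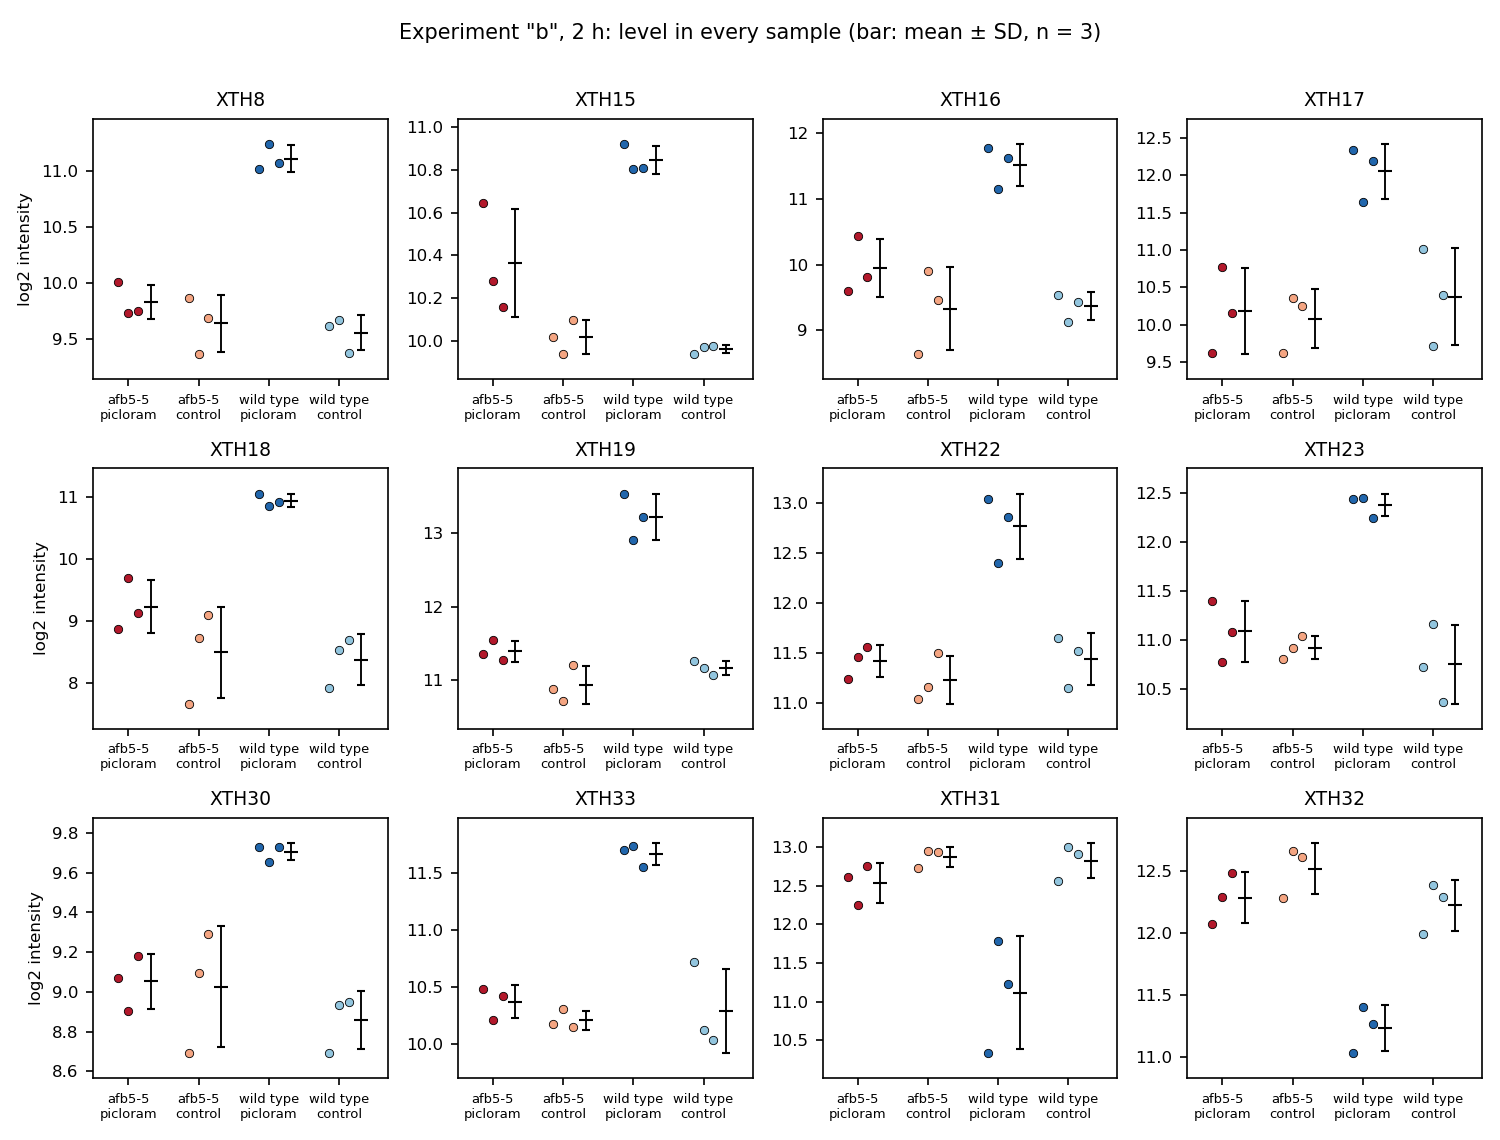
Levels (log2 intensity, each panel with its own scale) of the 12 XTH genes called in wild type at 2 h in experiment “b”, with 1 point per sample and the mean ± SD (n = 3) beside each group. Wild-type picloram samples (dark blue) stood above all wild-type control samples (light blue) for 10 genes and below them for XTH31 and XTH32, whereas the afb5-5 picloram samples (red) and afb5-5 control samples (orange) overlapped for all of these genes except XTH15 and XTH19.

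XTH9, XTH24 and XTH6 were higher in all wild-type picloram samples without passing the threshold, and XTH24 and XTH6 were picked out after their values were seen. XTH9 (AT4G03210), a gene with a role in secondary growth of stems, read 11.64, 12.05 and 11.85 on picloram and 11.23, 11.35 and 11.15 on control for its first splice form (0.60 ± 0.16, adjusted p = 0.0927), whereas its second form passed the threshold (0.74 ± 0.15, adjusted p = 0.0292). XTH24 (AT4G30270), known as MERI5, read 11.44, 11.44 and 11.40 on picloram and 9.97, 10.81 and 10.67 on control (0.94 ± 0.25, adjusted p = 0.0864). XTH6 (AT5G65730) read 9.54, 9.94 and 10.21 on picloram and 8.74, 9.25 and 9.35 on control (0.78 ± 0.27, adjusted p = 0.211). With the replicate as a block within each genotype, XTH24 and XTH6 were called higher as well (adjusted p = 0.0324 and 0.0187), making 12 higher and 2 lower, when 3.75% of all transcripts were called, against 2.17% without the block. Counted without a test, all 3 picloram samples were above all 3 controls for 14 of the 33 genes and below them for 3, beside 10.8% and 10.2% of all transcripts.

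In afb5-5, the question was whether XTH mRNAs still respond to picloram when this receptor is mutated. None of the 33 genes was called by limma after 2 h (2 had an unadjusted p under 0.05, XTH15 and XTH19), and 0% of all transcripts were called (384 of 37118 had an unadjusted p under 0.05). The median change over the family was 0.08, beside -0.00 over all transcripts. All 3 picloram samples were above all 3 controls for the same 2 genes, beside 1.73% of all transcripts, and below them for none, beside 1.75%. XTH18 read 8.86, 9.70 and 9.12 in afb5-5 on picloram and 7.67, 8.71 and 9.08 in afb5-5 on control, a difference of 0.74 ± 0.34 (SE) with a 95% interval of -0.00 to 1.47. XTH19 read 11.36, 11.55 and 11.28 on picloram and 10.88, 10.72 and 11.21 on control (0.46 ± 0.18, interval 0.06 to 0.85). XTH15 read 10.64, 10.28 and 10.16 on picloram and 10.02, 9.94 and 10.10 on control (0.34 ± 0.14, interval 0.03 to 0.65). The samples overlapped for XTH18 but not for XTH19 and XTH15, and these intervals are not adjusted for the number of genes.

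Other genes that were called in wild type were not called in afb5-5. XTH16 read 9.60, 10.44 and 9.81 in afb5-5 on picloram and 8.64, 9.90 and 9.46 in afb5-5 on control, so that its groups overlapped widely (0.62 ± 0.31, interval -0.06 to 1.30). XTH17 read 9.62, 10.78 and 10.16 on picloram and 9.62, 10.36 and 10.25 on control, a difference of 0.11 ± 0.36. XTH31 read 12.61, 12.25 and 12.75 on picloram and 12.72, 12.95 and 12.94 on control, a difference of -0.34 ± 0.30 with an interval of -0.98 to 0.31. For the 10 genes called higher in wild type, the median change was 0.19 in afb5-5 and 1.59 in wild type, with a range of 0.03 to 0.74 in afb5-5. These genes were picked by their wild-type calls, which favours large values in wild type. All 10 changes in afb5-5 were positive, and their intervals ran between -0.68 and 1.47, wide enough to hold a 2-fold change for some of the genes.

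On picloram, afb5-5 differed from wild type for 10 of the 33 genes, 8 lower and 2 higher, beside 0.978% of all transcripts lower and 0.264% higher (1.24% in either direction). The wild-type picloram samples are the same as those of the wild-type comparison, so the values below are not a second test of it. The genes lower in afb5-5 were XTH8 (-1.28 ± 0.16), XTH16 (-1.57 ± 0.31), XTH17 (-1.86 ± 0.36), XTH18 (-1.71 ± 0.34), XTH19 (-1.82 ± 0.18), XTH22 (-1.35 ± 0.20), XTH23 (-1.29 ± 0.21) and XTH33 (-1.29 ± 0.18), given as log2 differences ± SE. XTH8 read 10.01, 9.73 and 9.75 in afb5-5 on picloram, against 11.01, 11.24 and 11.07 in wild type on picloram, and every afb5-5 sample was below every wild-type sample. XTH22 read 11.23, 11.46 and 11.55 in afb5-5 on picloram, against 13.04, 12.40 and 12.85 in wild type on picloram. For XTH23 the levels were 11.40, 10.78 and 11.09 in afb5-5 and 12.44, 12.46 and 12.25 in wild type, and every afb5-5 sample was below every wild-type sample. XTH33 read 10.48, 10.21 and 10.42 in afb5-5 and 11.70, 11.73 and 11.55 in wild type, again without overlap. The pair of group III-A was higher in afb5-5, XTH31 by 1.42 ± 0.30 (adjusted p = 0.0429) and XTH32 by 1.05 ± 0.17 (adjusted p = 0.0126). XTH32 read 12.07, 12.29 and 12.49 in afb5-5 on picloram and 11.03, 11.40 and 11.26 in wild type on picloram. XTH15 (-0.48 ± 0.14, adjusted p = 0.196) and XTH30 (-0.65 ± 0.16, adjusted p = 0.102) did not pass.

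XTH17 lost its call with the replicate as a block (adjusted p = 0.0529) and in 4 of the 6 fits that left out 1 sample, and XTH18 lost it under quantile normalization. The count of 10 and the share of all transcripts called both fell when single samples were left out. The count was 4 without wild-type picloram replicate 3 (0.426% of all transcripts, against 1.24%) or afb5-5 picloram replicate 3 (0.423%). It was 5 without wild-type picloram replicate 1 (0.808%). It was 6 without afb5-5 picloram replicate 1 (0.676%) or when only the 2 groups were fitted (0.477%). XTH8, XTH19 and XTH33 were called in each of the 6 fits that left out 1 sample, whereas XTH16, XTH18 and XTH31 were called in 1 of them each. All 3 afb5-5 samples were below all 3 wild-type samples for 11 genes and above them for 3, beside 8.89% and 7.79% of all transcripts.

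On control medium no XTH gene was called between the genotypes by limma (1 of 33, XTH5, had an unadjusted p under 0.05), and 0% of all transcripts were called (338 of 37118 had an unadjusted p under 0.05). XTH5 read 8.37, 8.83 and 8.53 in afb5-5 and 9.40, 8.70 and 9.14 in wild type, and the groups overlapped. For no member were all samples of 1 genotype above those of the other, beside 2.03% of all transcripts for afb5-5 higher and 1.5% for afb5-5 lower. The median difference over the family was 0.05, and the range ran between -0.50 and 0.30.

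The difference between the 2 picloram responses, afb5-5 minus wild type, was tested directly as an interaction over the same 12 samples. No XTH gene was called by limma, beside 0.102% of all transcripts (0.00539% higher and 0.097% lower in afb5-5), although 13 of 33 had an unadjusted p under 0.05 (1518 of 37118 over all transcripts). The difference was -1.59 ± 0.26 for XTH19 (adjusted p = 0.0503) and -1.36 ± 0.23 for XTH8 (adjusted p = 0.0551), so both lay just above the threshold. XTH19 was called when the array medians were subtracted, when the dimmest 25% of transcripts were left out, with a variance trend and robust fit, and without wild-type picloram replicate 2. XTH8 was called with the array medians subtracted, and XTH33 (-1.21 ± 0.25, adjusted p = 0.145) without wild-type control replicate 1. XTH31 had a difference of 1.37 ± 0.42 (adjusted p = 0.647). A p above the threshold does not show that the 2 genotypes responded alike.

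**Figure D2:**
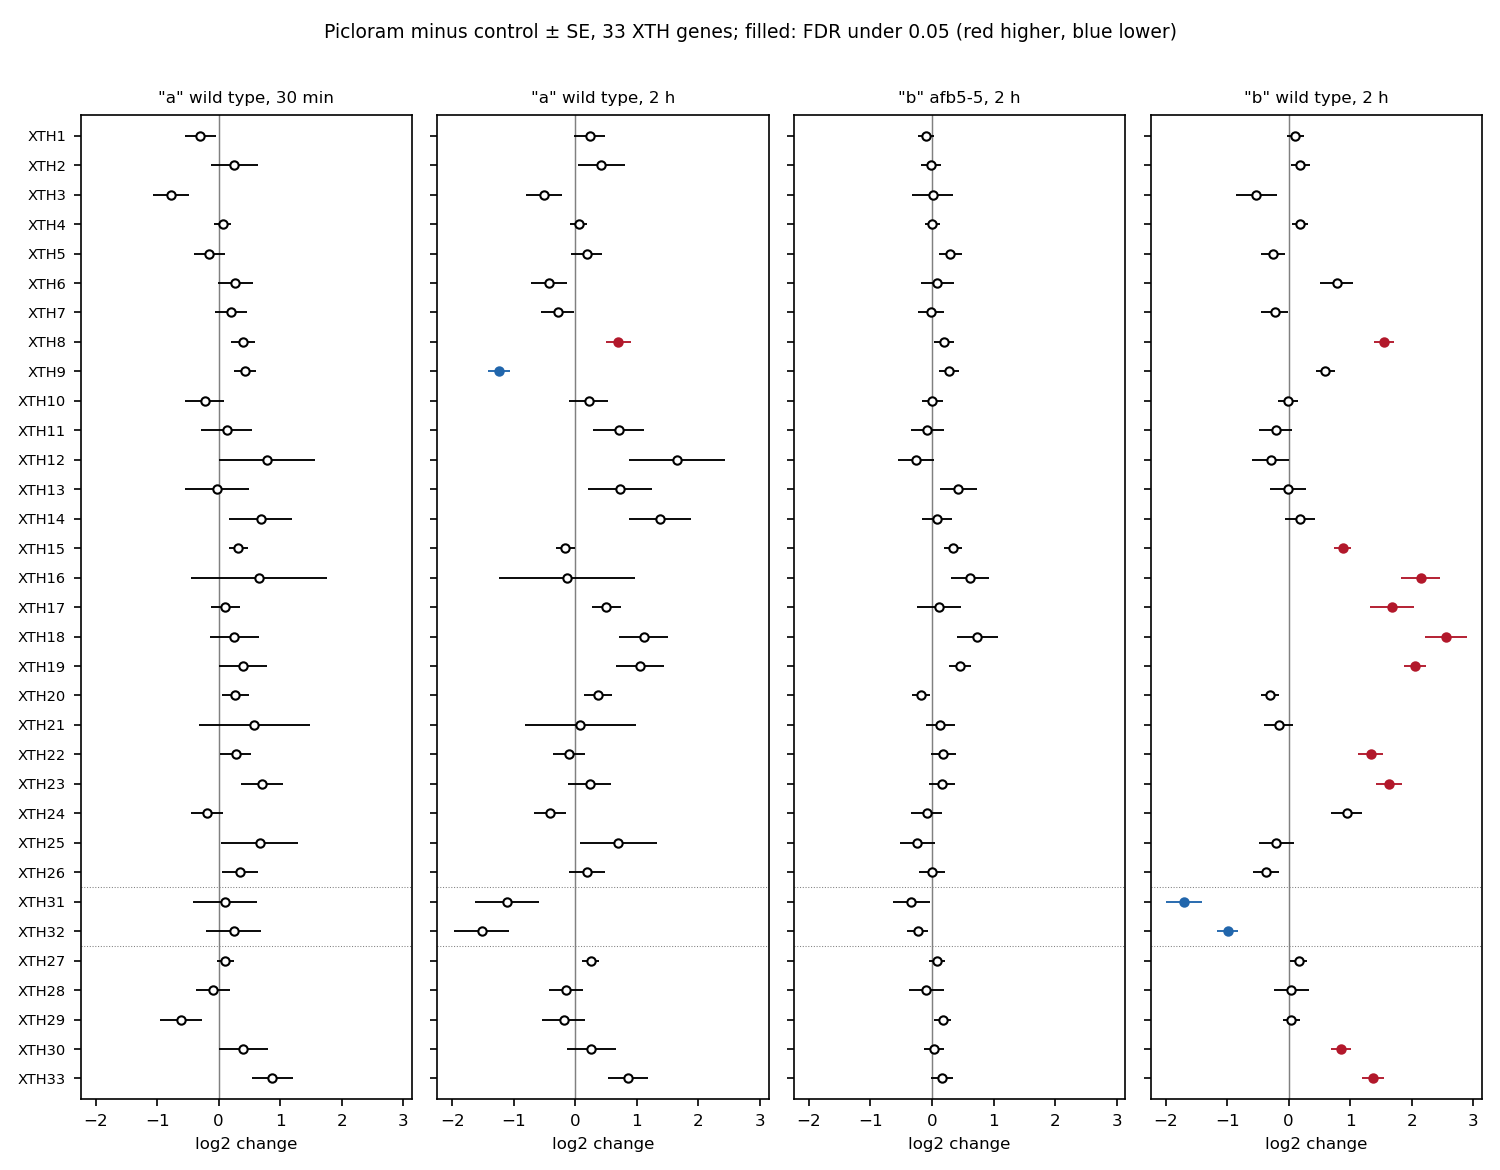
Log2 change (picloram minus control) ± SE of all 33 XTH genes in 4 comparisons, ordered by group (I and II, then III-A, then III-B, divided by dotted lines), with called genes filled (red higher, blue lower). In wild type of “b” 10 genes were called higher and 2 lower, in afb5-5 none, at 30 min in “a” none, and at 2 h in “a” 1 higher (XTH8) and 1 lower (XTH9).

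In experiment “a”, the first time point asked which XTH mRNAs respond within 30 min. None of the 33 was called by limma, beside 0.155% of all transcripts higher and 0.0527% lower (0.208% in all), and 3 had an unadjusted p under 0.05, beside 2453 of 30361 transcripts. The largest difference was that of XTH33, which read 14.17, 13.69 and 13.69 on picloram and 13.67, 13.22 and 12.05 on control at 30 min (0.87 ± 0.33, adjusted p = 0.497); all picloram samples were above all controls, and control replicate 3 was the lowest. XTH3 (AT3G25050), an enzyme that can also join cellulose chains, read 5.91, 6.27 and 6.02 on picloram and 6.11, 7.41 and 7.01 on control, a difference of -0.78 ± 0.29, adjusted p = 0.497, with control replicate 1 inside the range of the picloram samples. It was among the dimmest 25% of the chip. The samples did not overlap for 4 genes, all higher on picloram, beside 5.81% of all transcripts, and for no gene lower, beside 5.76%. XTH8 read 14.66, 14.78 and 14.70 on picloram, against 14.03, 14.55 and 14.38 on control (0.40 ± 0.20, adjusted p = 0.664). XTH9 read 14.50, 15.07 and 14.68 on picloram, against 14.46, 14.46 and 14.04 on control (0.43 ± 0.18, adjusted p = 0.563). The median change over the family was 0.26, beside -0.01 over all transcripts.

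At 2 h in “a”, XTH8 was called higher and XTH9 lower, 1 gene in each direction, beside 5.53% of all transcripts called higher and 5.84% lower (11.4% in all). XTH8 read 14.84, 15.06 and 14.86 on picloram, against 14.49, 14.36 and 13.82 on control, a rise of 1.62-fold (0.70 ± 0.20, adjusted p = 0.0435). It was not called in any of the 6 fits that left out 1 sample (adjusted p between 0.0533 and 0.141), nor with the values as deposited or with array medians subtracted. XTH9 read 13.75, 13.66 and 13.90 on picloram and 14.99, 15.05 and 15.00 on control, a fall of 1.24 ± 0.18 (SE) on the log2 scale, or 2.37-fold (adjusted p = 0.00235), and was called in all 6 of these fits. With both samples of replicate 1 left out, neither was called (adjusted p = 0.0583 for XTH9), a fit with 2 samples in each group.

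With the replicate as a block within the time point, 7 genes were called at 2 h: XTH8, XTH18, XTH19 and XTH33 higher and XTH9, XTH31 and XTH32 lower. The same block raised the share of all transcripts called to 18.8%, against 11.4% without it, so that 7 of 33 lay near the background. XTH18 read 14.01, 13.91 and 14.57 on picloram, against 12.93, 12.86 and 13.37 on control (1.11 ± 0.40, adjusted p = 0.1, and 0.00398 with the block). XTH19 read 14.27, 14.36 and 14.62 on picloram, against 13.16, 13.37 and 13.59 on control (1.04 ± 0.39, adjusted p = 0.112, and 0.0133 with the block). Both were higher in every picloram sample, as was XTH33 at 14.41, 14.42 and 14.52 on picloram, against 13.60, 13.45 and 13.73 on control (0.86 ± 0.33, adjusted p = 0.124, and 0.0349 with the block). XTH32 read 12.74, 12.31 and 13.36 on picloram and 14.30, 14.25 and 14.42 on control, a difference of -1.52 ± 0.45 (adjusted p = 0.0512, and 0.0102 with the block). XTH31 read 12.98, 13.01 and 13.20 on picloram and 14.48, 14.22 and 13.83 on control, a difference of -1.11 ± 0.52 (adjusted p = 0.2, and 0.0485 with the block). In both genes all picloram samples were below all controls. Over the family, all picloram samples were above all controls for 9 genes and below them for 5, beside 17.3% and 18.9% of all transcripts. The median change over the 33 genes was 0.22, beside -0.01 over all transcripts. Without picloram replicate 3, 5 genes were called (XTH9 and XTH32 lower, and XTH12, XTH13 and XTH14 higher), beside 8.85% of all transcripts. Without any 1 of the other 5 samples only XTH9 was, beside 4.78% to 8.43%. The summed intensity of the 5 plant-axis markers lay between 87040 and 97200 on picloram and between 82230 and 85320 on control, and their part in the changes at 2 h was not tested.

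Other genes that were called in “b” were called at 2 h in “a” neither with nor without the block. XTH17 read 15.10, 15.20 and 15.46 on picloram and 14.80, 14.89 and 14.57 on control (0.50 ± 0.23, adjusted p = 0.207), without overlap. XTH23 read 14.33, 14.08 and 14.44 on picloram and 14.01, 14.04 and 14.11 on control (0.23 ± 0.34, adjusted p = 0.739), with overlap. XTH22 read 14.77, 14.63 and 14.88 on picloram and 14.87, 14.85 and 14.86 on control (-0.10 ± 0.26, adjusted p = 0.854), and its highest sample was a picloram one although its mean was lower on picloram. XTH15 read 14.45, 14.52 and 14.48 on picloram and 14.66, 14.69 and 14.60 on control (-0.17 ± 0.15, adjusted p = 0.56), so that every picloram sample was below every control, by little. XTH30 read 13.36, 13.54 and 13.36 on picloram and 13.34, 13.27 and 12.87 on control (0.26 ± 0.40, adjusted p = 0.749). XTH16 read 10.65, 14.31 and 14.64 on picloram and 10.74, 14.66 and 14.62 on control, so that replicate 1 was far below the other replicates in both groups. Its change at 2 h was -0.14 ± 1.11 with all samples and -0.17 without replicate 1 of both groups.

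The change of the response between 30 min and 2 h was called for 1 gene, XTH9, which was lower (-1.67 ± 0.26, adjusted p = 0.025), beside 0.431% of all transcripts lower and 0.415% higher (0.846% in all). The dyes were the same at both times. On picloram XTH9 averaged 14.75 ± 0.29 at 30 min and 13.77 ± 0.12 at 2 h (SD, n = 3 each), and on control 14.32 ± 0.25 at 30 min and 15.01 ± 0.03 at 2 h, so that both groups moved and in opposite directions. The call was lost with the values as deposited, with array medians subtracted and in 7 of the 12 fits without 1 sample, where the adjusted p ranged between 0.0212 and 0.0901. The 7 are those without picloram replicate 2 or 3 at 30 min, any 1 control at 2 h, or picloram replicate 1 or 2 at 2 h. XTH32 had a change of -1.77 ± 0.63 (adjusted p = 0.193). Between 30 min and 2 h on control alone, no XTH gene was called by limma (4 of 33 had an unadjusted p under 0.05, beside 5005 of 30361 transcripts), beside 0.25% of all transcripts higher and 0.105% lower at 2 h (0.356% in all). XTH20, a root-expressed relative of XTH19, differed by 0.65 ± 0.22 (adjusted p = 0.192) and XTH9 by 0.69 ± 0.18 (adjusted p = 0.124), neither passing. All 2 h controls were above all 30 min controls for 4 genes, beside 11.2% of all transcripts, and below them for none, beside 12.6%.

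**Figure D3:**
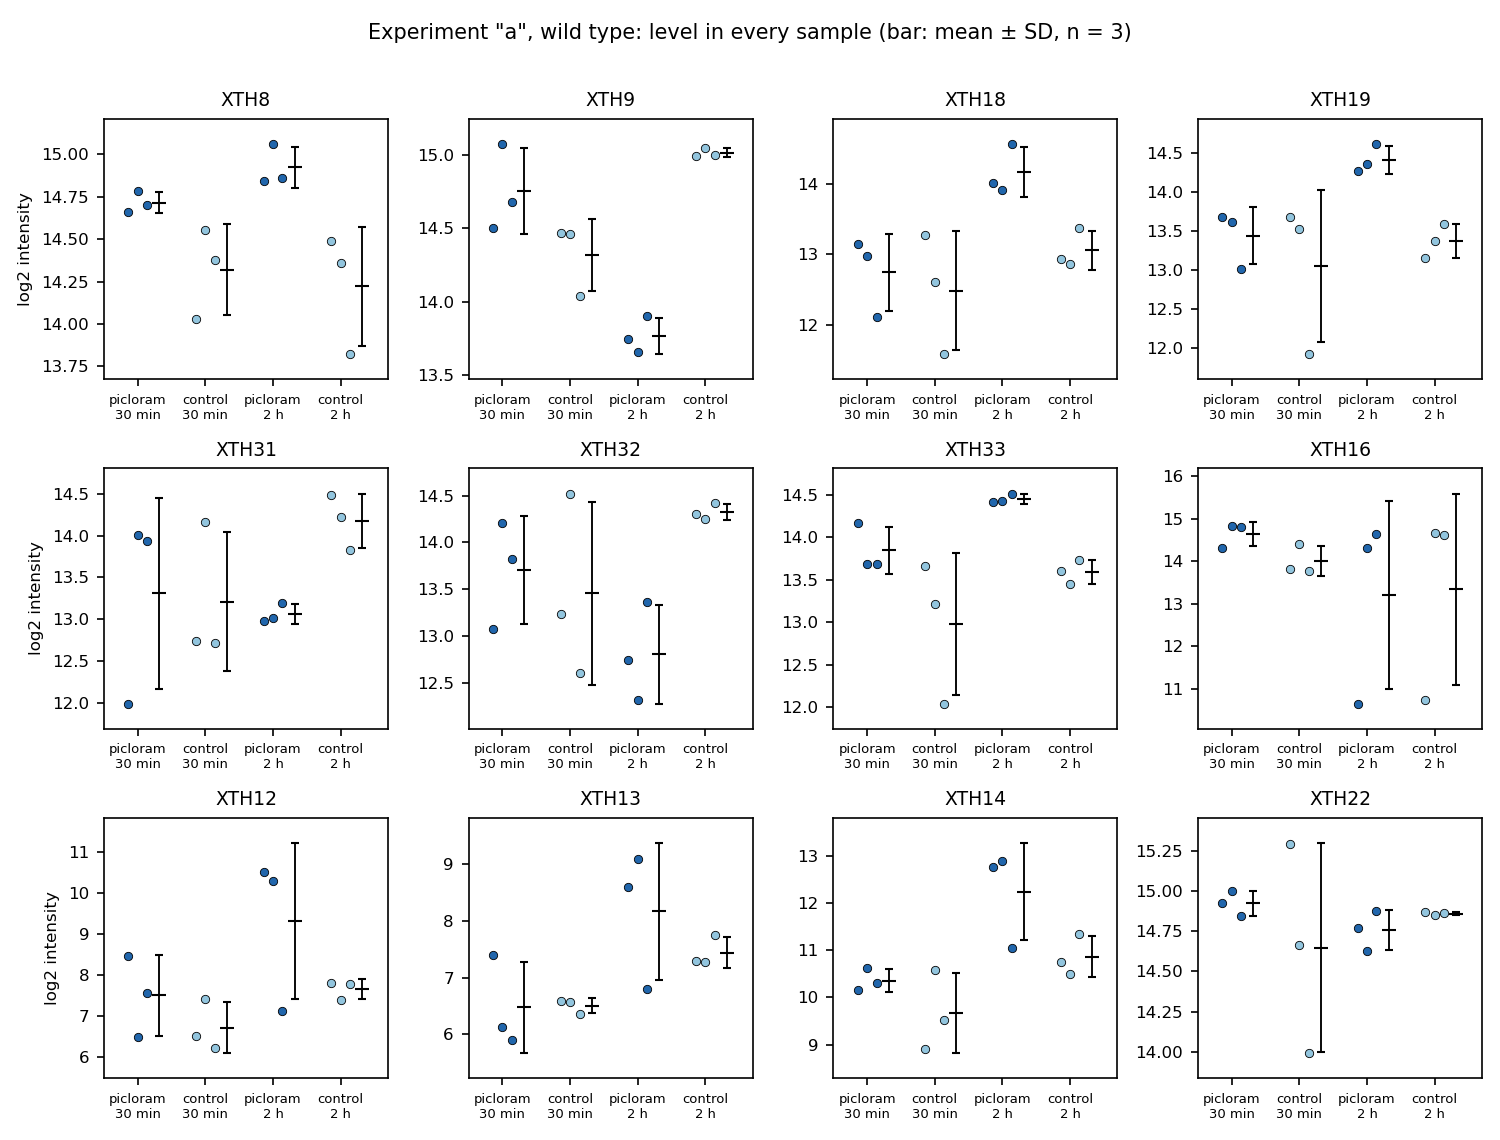
Levels (log2 intensity after quantile normalization, each panel with its own scale) of 12 XTH genes in wild type of experiment “a” at 30 min and 2 h, with 1 point per sample in order of replicate number and the mean ± SD (n = 3) beside each group. XTH9 at 2 h lay between 13.66 and 13.90 on picloram and between 14.99 and 15.05 on control; replicate 1 of XTH16 was low in both 2 h groups; and XTH12, XTH13 and XTH14 were high in picloram replicates 1 and 2 at 2 h.

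XTH12, XTH13 and XTH14, which are mainly known from roots, were picked out after their values were seen. XTH12 read 10.51, 10.29 and 7.12 on picloram and 7.82, 7.39 and 7.79 on control at 2 h in “a”. XTH13 read 8.60, 9.08 and 6.80 on picloram and 7.29, 7.27 and 7.75 on control. XTH14 read 12.76, 12.89 and 11.05 on picloram and 10.75, 10.49 and 11.35 on control. Picloram replicates 1 and 2 were high in all 3 genes, and replicate 3 was within or below the range of the controls for each. None was called with all samples (1.65 ± 0.78, adjusted p = 0.21 for XTH12), whereas without picloram replicate 3 all 3 were (adjusted p = 0.0116, 0.0492 and 0.021). EXPA7, which encodes an expansin of root hairs, read 11.47, 11.31 and 9.03 on picloram in these samples, against 7.40, 6.91 and 9.51 on control. EXPA18, its relative, read 11.25, 11.42 and 7.92 on picloram and 6.61, 6.84 and 9.32 on control. Picloram replicates 1 and 2 were the high samples here too. Control replicate 3 was the highest control for EXPA7, EXPA18, XTH13 and XTH14, but not for XTH12. All 7 root-hair markers had a higher mean on picloram, and 1 of the 7 was called higher, beside 5.53% of all transcripts. The called marker was PRP3, a proline-rich wall protein (1.77 ± 0.40, adjusted p = 0.0169). Without picloram replicates 1 and 2 the change of XTH12 was -0.54, that of XTH13 -0.64 and that of XTH14 0.19. This setting was chosen after the values were seen and leaves 1 picloram sample. It removes the samples named above as high, so it restates replicate 3 against the controls and is not a test. The part of root tissue in these values was not tested. In “b”, the same 3 genes changed by between -0.29 and 0.18 in wild type, where 6 of the 7 root-hair markers had a lower mean on picloram.

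A fit of the 12 wild-type samples at 2 h of both experiments, on the 30023 transcripts that both chips hold, gave the mean response over both. It called 7 XTH genes higher (XTH8, XTH17, XTH18, XTH19, XTH23, XTH30 and XTH33) and 2 lower (XTH31 and XTH32), beside 5.25% of all transcripts higher and 3.67% lower (8.92% in all). XTH18 had the largest rise (1.83 ± 0.26, adjusted p = 0.00101), followed by XTH19 (1.55 ± 0.19, adjusted p = 0.000409), and XTH31 fell by 1.41 ± 0.22 and XTH32 by 1.26 ± 0.18 (adjusted p = 0.0022 and 0.00106). XTH8, XTH17, XTH18, XTH19, XTH31, XTH32 and XTH33 kept their call in all 12 fits without 1 sample, XTH23 in 8 and XTH30 in 7. A call in this fit does not show a response in each experiment: in “a” alone XTH23 changed by 0.23 ± 0.34 and XTH30 by 0.26 ± 0.40, with no call. With the replicate as a block XTH3 was called lower as well (-0.52, adjusted p = 0.018). Of the 12 genes called in “b”, 9 had the same sign at 2 h in “a”, as did 560 of 660 (84.8%) of all transcripts called in “b” and present on both chips. The exceptions were XTH15, XTH16 and XTH22, with changes of -0.17, -0.14 and -0.10 in “a”. The 33 genes’ changes in “a” and “b” at 2 h correlated with r = 0.35 (Pearson) and 0.26 (Spearman’s rho). Across all 30023 transcripts these were 0.27 and 0.20, and both pairs are descriptions across genes, which are not independent replicates.

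The difference between the responses of the 2 experiments, “b” minus “a”, was added after the data were seen. It was called for 6 genes, all with the higher change in “b”, beside 4.21% of all transcripts (2.51% higher in “b” and 1.69% lower): XTH9 (1.84 ± 0.20), XTH15 (1.04 ± 0.17), XTH18 (1.45 ± 0.33), XTH22 (1.43 ± 0.26), XTH23 (1.40 ± 0.27) and XTH24 (1.35 ± 0.30). XTH9 was the only one whose mean was lower on picloram in “a” with a call there, and its 3 picloram samples were below the controls in “a” and above them in “b”. With the replicate as a block the count was 12 (11 higher and 1 lower, beside 15.1% of all transcripts). It was 10 without picloram replicate 3 of “a” (beside 4.66%) and 3 without picloram replicate 3 of “b” (beside 1.17%). XTH9, XTH15 and XTH23 kept this call in all 12 fits without 1 sample and XTH22 in 11, but XTH24 kept it in 5 and XTH18 in 2. Without both replicate 1 samples of “a” the count was 2 (XTH9 and XTH16), beside 0.5% of all transcripts. In “a” the control levels of XTH15, XTH22, XTH23 and XTH24 at 2 h lay between 13.72 and 14.87 on a scale whose highest value was 15.99. Those of XTH18, also among the 6, lay between 12.86 and 13.37, and those of XTH9 between 14.99 and 15.05. Of the 33 genes, 8 reached more than 50% of the highest intensity on the arrays of “a”, as did 1382 of 30361 transcripts, and none did in “b”, against 71 of 37118. The 8 were XTH4, XTH7, XTH8, XTH9, XTH16, XTH17, XTH22 and XTH27. Of the 6 genes above, XTH9 and XTH22 were thus among them, whereas XTH15, XTH18, XTH23 and XTH24 were not. The experiments differed in chip, dyes, amplification and extraction, and the part of each in these differences was not tested.

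**Figure D4:**
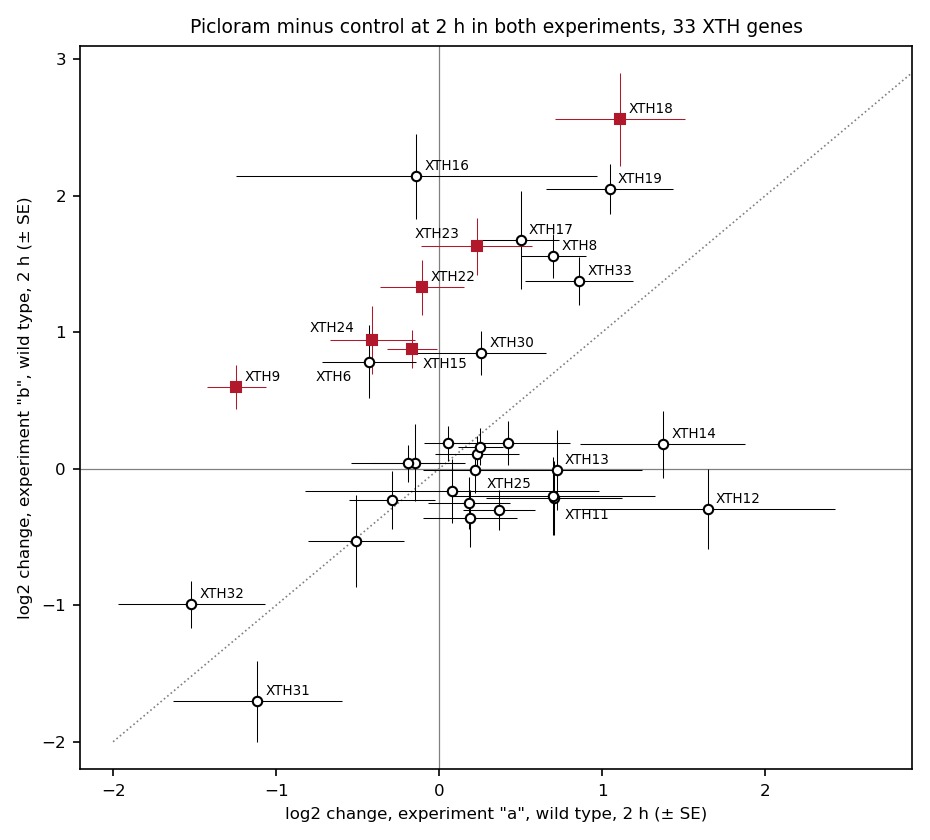
Log2 change (picloram minus control) ± SE at 2 h in wild type for the 33 XTH genes, with experiment “a” on the horizontal and “b” on the vertical axis and a dotted line of equal change. Red squares mark the 6 genes whose change differed between the experiments; XTH18 and XTH19 lie in the upper right, XTH31 and XTH32 in the lower left, and XTH9 in the upper left (-1.24 in “a” and 0.60 in “b”).

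Neighbours in a tandem cluster were not all called together. The cluster of XTH12, XTH13, XTH25 and XTH22 on chromosome 5 held 1 gene called in wild type of “b”, XTH22, while the other 3 changed by -0.29, -0.01 and -0.20. In the pair of XTH23 and XTH14 on chromosome 4, XTH23 was called and XTH14 was not (0.18 ± 0.25, adjusted p = 0.766). In the cluster of XTH24, XTH18 and XTH19, also on chromosome 4, XTH18 and XTH19 were called and XTH24 was not (0.94, adjusted p = 0.0864). All XTH24 picloram samples were nevertheless above all its controls, and it was called with the replicate as a block within each genotype. XTH1 and XTH2, the remaining pair on chromosome 4, were in the dimmest 25% of both chips, as were XTH26, a root-hair gene, and XTH29. XTH3 was so in “a” only and XTH10 in “b” only, and at such levels a small change would be hard to see.

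In all, 19 of the 33 genes were called in no comparison. XTH4 (AT2G06850), which is known from vascular tissue, read 14.06, 14.10 and 13.98 in wild type on picloram and 13.84, 13.79 and 13.97 on control in “b” (0.19 ± 0.13, adjusted p = 0.512). In “a” its levels lay between 15.59 and 15.95 in all 12 samples, on the scale that ended at 15.99. XTH27 (AT2G01850), which is needed for tracheary elements in leaves, read 12.40, 12.57 and 12.64 on picloram and 12.56, 12.23 and 12.33 on control (0.16 ± 0.13, adjusted p = 0.594). XTH7 (AT4G37800) read 11.91, 12.71 and 12.22 on picloram and 12.21, 12.57 and 12.75 on control (-0.23 ± 0.21, adjusted p = 0.641). The changes of the 19 ran between -0.53 and 0.78 in wild type of “b”, between -0.26 and 0.43 in afb5-5, between -0.78 and 0.79 at 30 min in “a” and between -0.51 and 1.65 at 2 h in “a”, the highest being that of XTH12.

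The enzymes that make and trim xyloglucan were compared by the same fits, on a list of 21 genes. In wild type of “b” at 2 h, 4 of the 21 were called higher and none lower, beside the 1.71% and 0.458% of all transcripts. CSLC4, a glucan synthase that makes the xyloglucan backbone, read 13.61, 13.65 and 13.72 on picloram, against 12.71, 12.75 and 12.76 on control (0.92 ± 0.12, adjusted p = 0.00229). CSLC5 (0.76 ± 0.17, adjusted p = 0.0393) and CSLC12 (1.08 ± 0.21, adjusted p = 0.0205) of the same family rose too. XXT1, which adds the first xylose to the backbone, had the largest change, with 12.52, 12.42 and 12.35 on picloram and 10.93, 11.20 and 10.62 on control (1.52 ± 0.17, adjusted p = 0.000679). In afb5-5 none of the 21 was called by limma, beside 0% of all transcripts (1 had an unadjusted p under 0.05, CSLC4 at 0.30 ± 0.12). On picloram CSLC4 (-0.75 ± 0.12), CSLC12 (-1.08 ± 0.21) and XXT1 (-1.22 ± 0.17) were lower in afb5-5 than in wild type, beside 0.978% of all transcripts. Without 1 sample these counts were 2 to 3 in wild type (2 without control replicate 2 or 3 or picloram replicate 2 or 3) and 1 to 3 on picloram between genotypes (1 without wild-type picloram replicate 2 or 3 or afb5-5 picloram replicate 3). Of all transcripts, 0.911% to 1.83% were called in the first of these sets of fits and 0.423% to 0.808% in the second.

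At 2 h in “a”, 10 of the 21 were called higher and 1 lower, beside 5.53% and 5.84% of all transcripts, and the median change of the list was 0.70, beside 0.22 for the XTH genes and -0.01 for all transcripts. By role, 4 of 5 backbone synthases (CSLC4, CSLC5, CSLC6 and CSLC8), 1 of 5 xylosyltransferases (XXT1), 2 of 4 side-chain transferases (the galactosyltransferases MUR3 and XLT2) and 3 of 5 trimming glycosidases (XYL1, BGAL10 and BGLC3) were called higher. The count of 11 fell with the share of all transcripts called, which was 11.4% with all samples. It was 6 without control replicate 1 (5.19% of all transcripts) or picloram replicate 2 (4.84%). It was 5 without picloram replicate 1 (4.78%), 4 without control replicate 2 (4.85%) and 0 without replicate 1 of both groups (1.04%). AXY4L, an O-acetyltransferase gene, was called lower (-0.92 ± 0.24, adjusted p = 0.0313). XYL1, the xylosidase that removes terminal xylose, read 15.38, 15.43 and 14.99 on picloram and 13.64, 13.62 and 13.66 on control in “a” (1.63 ± 0.23, adjusted p = 0.00184). In “b” it read 11.94, 11.99 and 12.00 on picloram and 11.94, 11.85 and 11.80 on control (0.11 ± 0.12, adjusted p = 0.679), and the responses of the 2 experiments differed (“b” minus “a” -1.52 ± 0.20, adjusted p = 0.00304). At 30 min none of the 21 was called by limma, beside 0.208% of all transcripts, and none had an unadjusted p under 0.05. In the fit of both experiments 12 were called higher, beside 5.25% of all transcripts, among them all 5 backbone synthases with changes between 0.61 and 1.12, and AXY4L was called lower (-0.71 ± 0.18), beside 3.67%. These 13 calls were 7 without control replicate 1 of “a” (5.24% of all transcripts, against 8.92%). They were 8 without its control replicate 2 (5.33%) or picloram replicate 1 (5.32%).

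**Figure D5:**
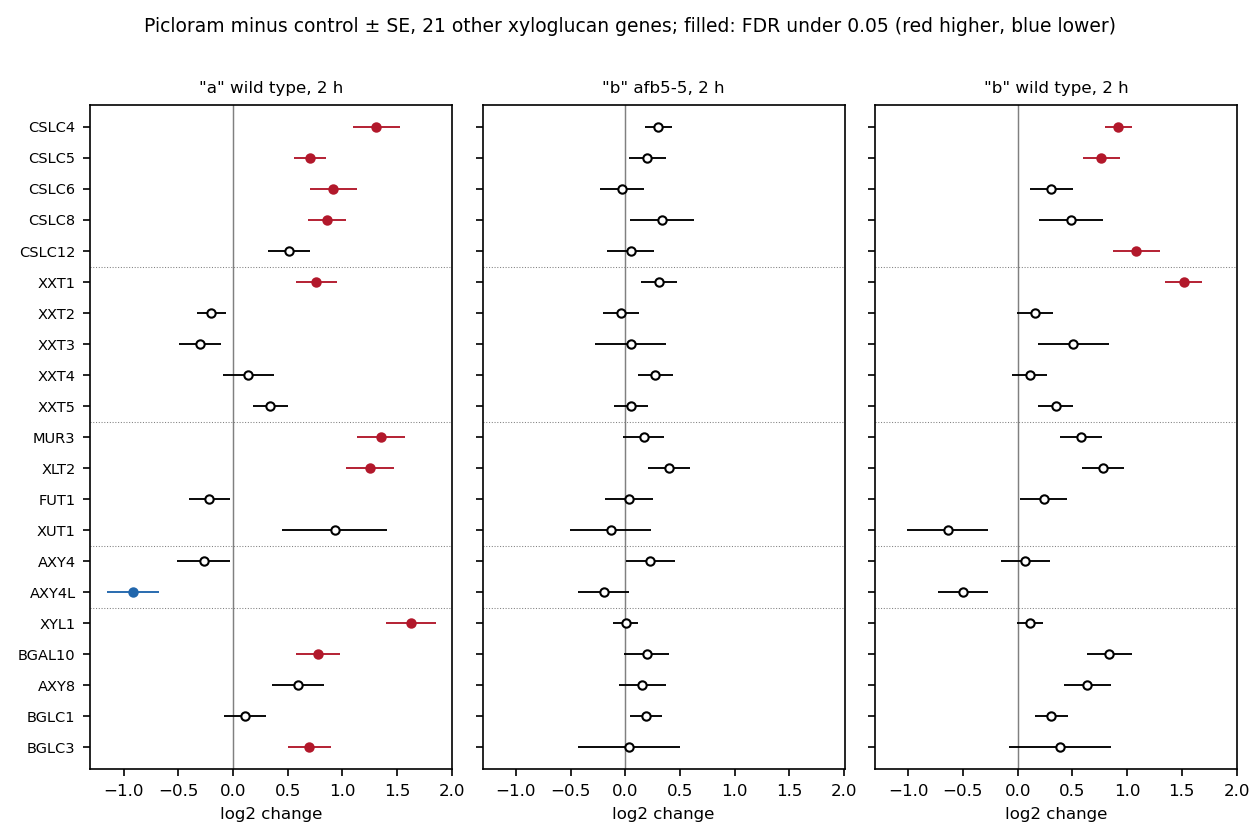
Log2 change (picloram minus control) ± SE at 2 h of 21 other xyloglucan genes, grouped by role from the top (backbone synthases, xylosyltransferases, side-chain transferases, O-acetylation, trimming glycosidases), with called genes filled (red higher, blue lower). Called genes numbered 11 in wild type of “a”, 0 in afb5-5 and 4 in wild type of “b”, and CSLC4, CSLC5 and XXT1 were filled in both wild-type panels.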

How the data were processed

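Hypocotyl mRNA was measured on NimbleGen arrays in 24 samples, 3 in each of 8 groups. The deposited values are linear intensities per transcript. The authors name RMA for both experiments (4-plex chips annotated with TAIR8 in “a”, 12-plex chips annotated with TAIR10 in “b”), with no version given in the sources used here. The deposited values of “a”, however, were described as not normalized between arrays, and those of “b” as normalized. All values were set to log2, and those of “a” were quantile normalized, since its array medians differed. Each experiment was fitted once over its 4 groups with limma 3.58.1 (R 4.3.3), and p-values were adjusted by Benjamini-Hochberg over all transcripts, with calls at an FDR under 0.05. A further fit joined the 12 wild-type samples at 2 h. The fits within each experiment were tested on simulated data with independent noise in each sample. Fits across both experiments were not tested in this way. Errors are SE of the difference unless SD is named. The number of arrays limits the precision, and a permutation test of 3 against 3 cannot go below p = 0.1.

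Same-numbered replicates deviated together for picloram and control within each time point of “a” (r between 0.34 and 0.60) and in wild type of “b” (0.38 to 0.67), but not in afb5-5 (0.04 to 0.18). The methods’ rank product was not run here. Genes that any comparison called were described with values of single samples, though not for every group. Other genes with values were picked after their values were seen. The members and gene lists were chosen with earlier results of these data known. No promoter or protein sequence was used here.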

Additional observations from a re-analysis of the deposited data

Results flagged for a closer look

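XTH9 had a different response at 2 h than at 30 min in experiment “a”, with a difference of -1.67 on the log2 scale (limma, adjusted p = 0.025). The change was -1.24 at 2 h and 0.43 at 30 min. It was lower in all 3 picloram samples at 2 h and higher in all 3 at 30 min.

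The response at 2 h in wild type differed between experiments “b” and “a” for 6 genes, each by the interaction of experiment and treatment in limma, a comparison added after the data were seen. The difference, “b” minus “a”, was 1.84 for XTH9, 1.04 for XTH15, 1.45 for XTH18, 1.43 for XTH22, 1.40 for XTH23 and 1.35 for XTH24. XTH9, XTH15 and XTH23 kept this call in all 12 fits without 1 sample, XTH22 in 11, XTH24 in 5 and XTH18 in 2. For XTH18 and XTH23 the mean change was positive in both experiments and larger in “b”, whereas for XTH9, XTH15, XTH22 and XTH24 it was positive in “b” and negative in “a”.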

How the results depend on the processing

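Between 12 and 20 alternatives were run for each comparison. Of 40 calls of single XTH genes, 19 held under all alternatives of their comparison, and 21 were lost under at least 1, in 111 of 618 values in all. Of 323 results that were not called, 24 gained a call under at least 1 alternative, and no called value changed direction. Counts of called XTH genes that stayed within 1.5 times the main count under all alternatives were those of wild type in “b” (12, range 8 to 14), of both experiments (9, range 7 to 10), and the counts of 0 at 30 min, in afb5-5 and between genotypes on control.

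At 2 h in “a”, where 2 genes were called, the count was 1 with the values as deposited and 1 with array medians subtracted. It was 6 with only these groups fitted and 1 to 5 without 1 sample. In the same order, 5.08%, 10.4%, 14.6% and 4.78% to 8.85% of all transcripts were called. The count was 0 without replicate 1 of both groups (1.04% of all transcripts), a setting chosen after the data were seen. Over all transcripts, higher and lower calls numbered 674 and 869 with the values as deposited and 1867 and 1293 with medians subtracted, against 1678 and 1772 in the reported fit. For the change between 30 min and 2 h (1 called), the count was 0 with the values as deposited (0.0856% of all transcripts). It was also 0 with array medians subtracted (0.57%) and without replicate 1 of both 2 h groups (0%). Without 1 sample it was 0 to 1 (0.0692% to 1.05%). Between the controls it was 1 (XTH9) with a variance trend and robust fit, and scaling by the values as deposited moved the median of all transcripts there to -0.20.

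For afb5-5 against wild type on picloram (10 called), the count was 6 with only these groups fitted (0.477% of all transcripts, against 1.24%). It was 4 to 9 without 1 sample (0.423% to 0.808%). For the genotype difference of the response (0 called), it was 2 with array medians subtracted (0.121% of all transcripts) and 1 without the dimmest 25% (0.151%). It was 1 with a variance trend and robust fit (0.116%) and 0 to 1 without 1 sample (0.0512% to 0.0943%). For “b” minus “a” (6 called), it was 2 without replicate 1 of both groups of “a” (0.5% of all transcripts). It was 3 to 10 without 1 sample (1.17% to 4.66%).

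The other xyloglucan genes were run under the same alternatives, added after the data were seen. At 2 h in “a” (11 called) the count was 6 with the values as deposited (5.08% of all transcripts). It was between 4 and 9 without 1 sample (4.78% to 8.85%). In wild type of “b” (4 called) it was 6 with a variance trend and robust fit (2.56%) and 2 with only these groups fitted (1.14%). In the fit of both experiments (13 called) it was between 7 and 12 without 1 sample (5.24% to 9.65%).

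With the replicate number as a block within each time point, 7 genes were called at 2 h in “a” instead of 2, while the share of all transcripts called was 18.8% instead of 11.4%. With a block 12 instead of 6 were called for “b” minus “a” (all transcripts 15.1% instead of 4.21%). Within each genotype, the block gave 14 in wild type of “b” (all transcripts 3.75% instead of 2.17%). XTH17 lost its call on picloram between genotypes when 1 block spanned all groups of “b” (adjusted p = 0.0529). The cause was not tested for any of these changes, and the number of arrays limits all of them.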
